A study of Drosophila melanogaster with 6 samples.

Results

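The genes described here are the chitin enzymes, peritrophins, mucins and chitin-binding proteins of Drosophila melanogaster. They were chosen by name from the deposited table of gene expression, as every row whose symbol belongs to the Cht, Idgf, obst, Peritrophin, Cda or Muc families or is ChLD3, serp, verm, Gasp, kkv or mmy. This gave 48 of the 16662 rows of the table. The values come from RNA-seq of whole larvae of the third instar, with 2 libraries for each of 3 genotypes. The mutant larvae came from homozygous stocks, HP1b16/HP1b16 and HP1b86/HP1b86, with different deletions in the gene of the chromatin protein HP1B. Both alleles were made by imprecise excision of a P element and backcrossed into the control strain before use. HP1b lies on the X chromosome, so male larvae would be hemizygous, and the sex of the larvae is not stated. The control was the yw strain, and the mutant stocks carry the same y and w mutations. Each mutant genotype is a single allele kept as a stock, and since no source states whether the libraries of a genotype came from different batches of larvae, a p-value here reflects only how far these libraries spread.

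Chitin is a polymer of N-acetylglucosamine that stiffens the larval cuticle and the lining of the tracheal tubes, and it also forms the peritrophic matrix, the sleeve that surrounds food in the midgut. Chitin synthases extrude the polymer, secreted deacetylases and chitin-binding proteins order it, and chitinases break it down at each moult. The obstructor and peritrophin families share a cysteine-rich chitin-binding domain, the Idgf proteins resemble chitinases but lack the catalytic activity, and mucins are heavily glycosylated proteins of epithelial surfaces.

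Levels are in FPKM, fragment counts divided by transcript length and by the library's mapped fragments. Summed over all rows, FPKM was 768520 and 778651 in HP1b16 and 1132181 and 874571 in HP1b86, against 657936 and 654430 in yw. Every mutant library thus had a higher total than both yw libraries, and values were not rescaled for this unless stated. The targeted gene was low in the mutant libraries: HP1b had 2.55 and 3.13 FPKM in HP1b16 larvae and 0.121 and 0.0403 FPKM in HP1b86 larvae, against 22.8 and 24.2 FPKM in yw larvae. The study reports no full-length HP1b mRNA and no functional protein from these alleles, and an aberrant transcript of the gene in the HP1b16 stock. The HP1b86 libraries differed more from each other than those of the other genotypes did. In HP1b86, 23.6% of the 10986 rows tested differed by more than 2-fold in FPKM + 1 between the libraries, compared with 1.85% in HP1b16 and 1.82% in yw. Among the chitin genes, HP1b86 replicate 1 was above replicate 2 for 25 of the 40 tested, where 44.3% of all rows tested had that order, and yw replicate 2 was above replicate 1 for 28 of the 40, where the share of all rows was 42.5%. The study's methods give a range of reads collected per sample, but the table holds FPKM only, so the depth behind a single value could not be computed. The HP1b86 libraries are titled by another naming scheme than the HP1b16 and yw libraries, and what that scheme marks is not stated, so it cannot be told apart from the HP1b86 genotype.

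Of the 48 chitin genes, 40 had a mean of at least 1 FPKM and were tested. No tested gene had a genotype mean under 1 FPKM. The other 8 were Cht8, ChLD3, Muc12Ea, Muc14A, Muc30E, Muc4B, Muc68D and Muc91C, which did not exceed 0.522 FPKM in any library. In the mean of both mutants, 10 chitin genes were higher than in yw and 0 were lower at an adjusted p under 0.05 (limma, adjusted over all rows tested). The same threshold called 4.68% of all rows higher and 1.7% lower. The 10 genes were Muc55B, obst-E, Cht9, Muc18B, obst-F, Peritrophin-15a, Muc96D, serp, obst-H and Cda9. At an unadjusted p under 0.05 the counts were 23 higher and 3 lower, where 18.4% and 12.7% of all rows passed. The median log2 fold change was 0.91 over the 40 chitin genes and -0.08 over all rows tested. All 4 mutant libraries lay above both yw libraries for 24 of the 40 genes (24.4% of all rows) and below both for 4 (19.8% of all rows), and the other 12 overlapped.

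These calls depended on single libraries. When any of the yw or HP1b16 libraries was left out, 0 chitin genes and 0 rows of the whole table passed in the mean of both mutants (limma), with 16 to 25 chitin genes at an unadjusted p under 0.05. When HP1b86 replicate 2 was left out, 24 chitin genes were higher and 6 lower, against a background of 20.4% and 25.6% of all rows. In HP1b86 against yw the counts without HP1b86 replicate 2 were 22 higher and 6 lower, where 19.4% and 23.2% of all rows passed. When HP1b86 replicate 1 was left out, 17 were higher and 2 lower, against 11.6% and 4.5%. The 10 genes called with all libraries passed in the mean of both mutants when either HP1b86 library was left out.

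Against yw, the HP1b86 allele alone gave 9 chitin genes that were higher and 0 that were lower (limma, adjusted p under 0.05), with 2.98% of all rows called higher and 1.06% lower. These were the 10 genes above without Cht9, and 0 passed when any yw or HP1b16 library was left out or after median-ratio scaling, with 14 to 24 at an unadjusted p under 0.05. The HP1b16 allele alone gave 0 in either direction, where 0.0091% of all rows were called in each direction. At an unadjusted p under 0.05, HP1b16 had 21 higher and 3 lower chitin genes, among 14.9% and 8.8% of all rows, and HP1b86 likewise had 21 higher and 3 lower, among 17.4% and 12.7%. The fit of all libraries takes each gene's spread from all genotypes together, so a gene has the same SE in both alleles. The wider spread of the HP1b86 libraries thus enters the HP1b16 test, and the narrower spread of the others enters the HP1b86 test. In a fit that held only the HP1b16 and yw libraries, 20 chitin genes were higher and 2, Cht5 and Cht11, were lower in HP1b16, with 13.8% and 7.86% of all rows called. In a fit of only the HP1b86 and yw libraries, 0 passed, with 20 at an unadjusted p under 0.05. The log2 fold change was above 0 for 30 of the 40 chitin genes in HP1b16 (40.8% of all rows) and for 31 in HP1b86 (49.5% of all rows). The alleles share their yw libraries, so their lists are given side by side and their overlap is not a result.

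**Figure D1:**
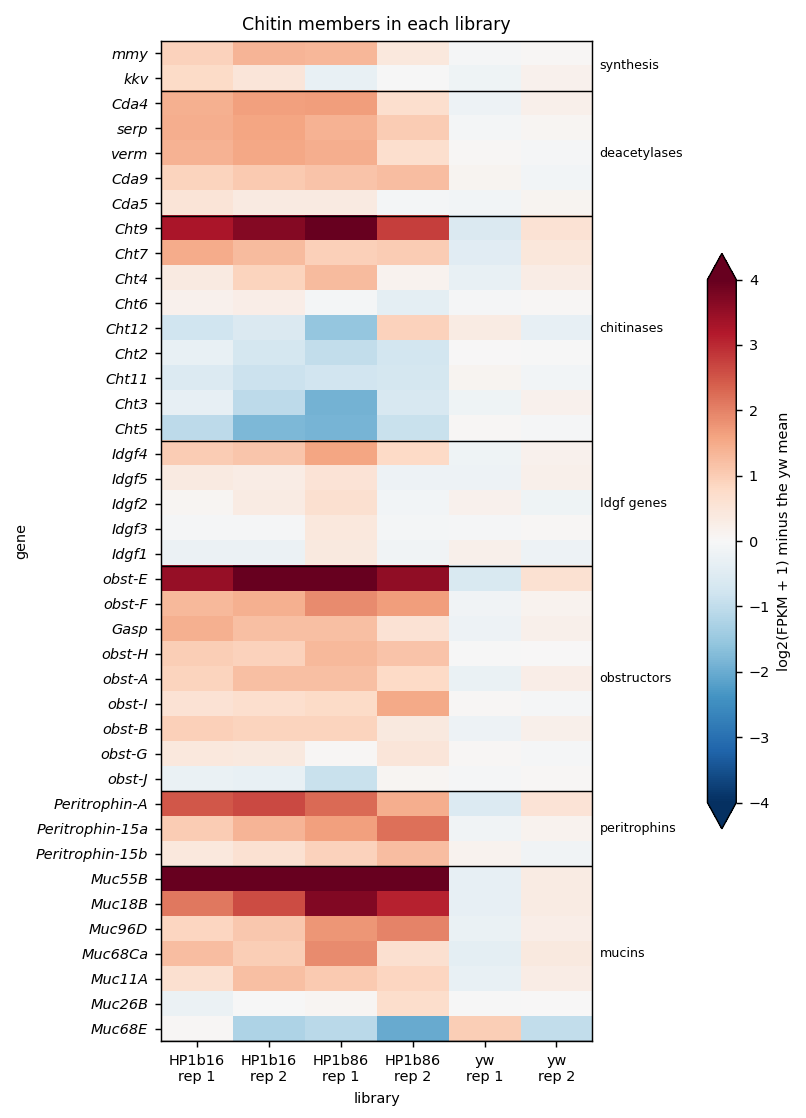
Level of each of the 40 tested chitin genes in each of the 6 libraries, as log2(FPKM + 1) minus the mean of the 2 yw libraries. Rows are genes grouped by role, columns are libraries, red is above and blue below the yw mean, and colours stop at 4 on either side; Muc55B, obst-E and Cht9 are dark red in the mutant libraries, while Cht2, Cht3, Cht5 and Cht11 are blue in all 4.

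Chitin synthesis was represented by a pair of genes, and neither passed the test. mmy makes UDP-N-acetylglucosamine, the building block of chitin. It had 57.9 and 79.9 FPKM in HP1b16 larvae and 78.2 and 41.0 FPKM in HP1b86 larvae, against 29.4 and 31.2 FPKM in yw larvae. Every mutant library was above both yw libraries, with HP1b86 replicate 2 the nearest to them. In the mean of both mutants the log2 fold change was 1.01 (SE 0.30, adjusted p = 0.109, limma). kkv is the chitin synthase of the epidermis and trachea. It had 17.8 and 14.6 FPKM in HP1b16 larvae and 8.13 and 10.04 FPKM in HP1b86 larvae, against 8.88 and 11.5 FPKM in yw larvae. The HP1b16 libraries were above all others, and the HP1b86 libraries overlapped those of yw. The log2 fold change was 0.24 in the mean of both mutants (SE 0.17, adjusted p = 0.429, limma).

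Of the 12 other genes of hexosamine and chitin synthesis, assembly and breakdown that were examined, all were tested and 0 passed in either direction in the mean of both mutants (limma). At an unadjusted p under 0.05, Gfat1 and nst, enzymes that lead to UDP-N-acetylglucosamine, CS-2, the chitin synthase of the midgut, and exp were higher, and knk and the hexosaminidase gene Hexo2 were lower, where 18.4% and 12.7% of all rows passed. The log2 fold change of Hexo2 was -0.54 in HP1b16 and -0.01 in HP1b86, where its libraries lay between those of yw. CS-2 had 5.26 and 6.26 FPKM in HP1b16 larvae and 5.19 and 5.84 FPKM in HP1b86 larvae, against 4.01 and 4.35 FPKM in yw larvae. The groups of libraries did not overlap for CS-2, and its differences were smaller than those of mmy.

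Chitin deacetylases remove acetyl groups from the polymer. Of 6 genes, 5 were tested, and 2 of them passed in the mean of both mutants, where 4.68% of all rows were called higher. All 5 had a log2 fold change above 0 (42.7% of all rows did), their median being 1.27, although Cda5 turned below 0 in TPM. The 2 that passed were serp and Cda9. serp is secreted into the tracheal lumen, where it limits the length of the tubes. It had 121 and 135 FPKM in HP1b16 larvae and 117 and 89.3 FPKM in HP1b86 larvae, against 41.2 and 46.9 FPKM in yw larvae. The mutant and yw libraries were well apart. serp had a log2 fold change of 1.52 in HP1b16 (SE 0.18, adjusted p = 0.0668), 1.20 in HP1b86 (SE 0.18, adjusted p = 0.0481) and 1.36 in the mean of both (SE 0.15, adjusted p = 0.0336, limma).

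verm, which acts beside serp in the trachea and is its neighbour on chromosome arm 3L, had 143 and 160 FPKM in HP1b16 larvae and 148 and 87.0 FPKM in HP1b86 larvae, against 55.0 and 52.3 FPKM in yw larvae. All mutant libraries were above yw, but HP1b86 replicate 2 lay well below the other mutant libraries. In the mean of both mutants verm had a log2 fold change of 1.27 (SE 0.24, adjusted p = 0.0525, limma), just outside the threshold. The deposited values do not show how reads shared by verm and serp were divided. Cda4 had a like pattern, with 36.2 and 42.4 FPKM in HP1b16 larvae and 43.4 and 21.1 FPKM in HP1b86 larvae, against 11.1 and 14.8 FPKM in yw larvae. Again HP1b86 replicate 2 was the lowest mutant library. Cda4 had a log2 fold change of 1.36 (SE 0.33, adjusted p = 0.0749, limma). Cda9, a deacetylase of the gut, had 47.8 and 53.2 FPKM in HP1b16 larvae and 56.9 and 61.0 FPKM in HP1b86 larvae, against 27.4 and 23.6 FPKM in yw larvae. For this gene the libraries of each genotype were close together. Cda9 had a log2 fold change of 0.96 in HP1b16 (SE 0.13, adjusted p = 0.0708), 1.18 in HP1b86 (SE 0.13, adjusted p = 0.0410) and 1.07 in the mean of both (SE 0.12, adjusted p = 0.0332, limma). In units of TPM, where every library sums to the same total, Cda9 did not pass (log2 fold change 0.67, adjusted p = 0.0691). Cda5, the lowest of those tested, was between 2.36 and 4.16 FPKM in all 6 libraries.

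**Figure D2:**
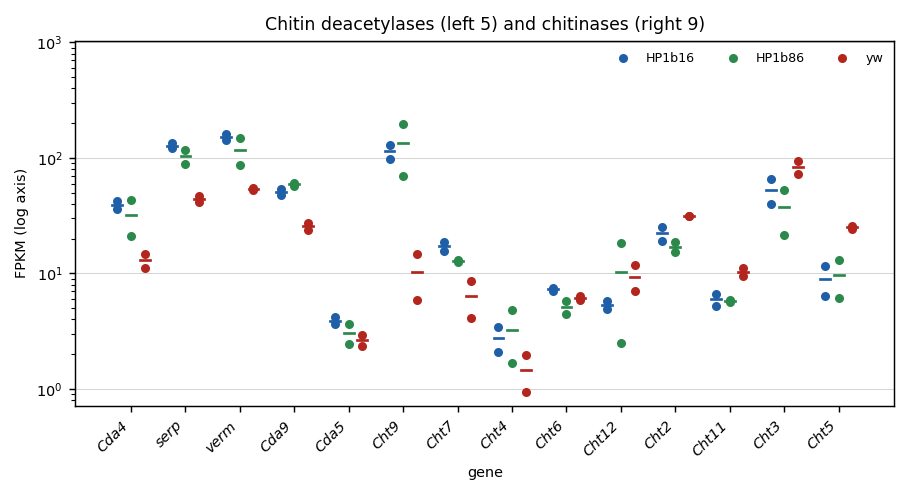
FPKM on a log axis of the 5 tested chitin deacetylases and 9 tested chitinases in each library of HP1b16 (blue), HP1b86 (green) and yw (red); points are libraries and bars are the means of 2 libraries. Cda4, serp, verm, Cda9, Cht9 and Cht7 have all mutant points above those of yw, and Cht2, Cht11, Cht3 and Cht5 have all mutant points below them.

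The chitinases lay on both sides of yw. Of 9 tested, 3 had a log2 fold change above 0 in the mean of both mutants and 6 below 0, the median being -0.49, and 42.7% of all rows were above 0. A single gene, Cht9, passed the test as higher, where 4.68% of all rows did. Cht9, which lies in a row with Cht8, Cht12 and Cht4 on chromosome arm 2R and is counted here with the gut genes, had 98.2 and 130 FPKM in HP1b16 larvae and 198 and 69.6 FPKM in HP1b86 larvae, against 5.91 and 14.6 FPKM in yw larvae. The lowest mutant library was still well above the higher yw library. Mean FPKM was 11.1-fold higher in HP1b16 and 13.1-fold higher in HP1b86. In the mean of both mutants Cht9 had a log2 fold change of 3.48 (SE 0.56, adjusted p = 0.0446), and in the alleles it was 3.46 (adjusted p = 0.0815) in HP1b16 and 3.51 (adjusted p = 0.0599) in HP1b86 (limma). Its adjusted p was 0.0555 with no filter on low values and 0.0517 after median-ratio scaling. In the mutant libraries its neighbours were lower: Cht4 reached at most 4.80 FPKM, Cht12 at most 18.2 FPKM and Cht8 at most 0.522 FPKM. In yw larvae the levels of Cht12 overlapped with those of Cht9. The sequences of these neighbours were not compared. If reads match several of them, those reads may have been divided among them, which would make the level of each uncertain.

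Cht3, Cht5, Cht2 and Cht11 were the 4 of the 40 tested chitin genes that were below both yw libraries in every mutant library, and 0 of them passed the test in the mean of both mutants (limma), with Cht2, Cht5 and Cht11 at an unadjusted p under 0.05. Cht5 is a chitinase of the moulting epidermis. It had 11.6 and 6.42 FPKM in HP1b16 larvae and 6.15 and 13.1 FPKM in HP1b86 larvae, against 25.6 and 24.3 FPKM in yw larvae. The yw libraries were nearly equal, and the mutant libraries spread widely below them. In the mean of both mutants the log2 fold change of Cht5 was -1.40 (SE 0.37, adjusted p = 0.0866, limma). Cht3, the most abundant chitinase in yw and named Cht10 in RefSeq, had 65.0 and 39.6 FPKM in HP1b16 larvae and 21.4 and 53.2 FPKM in HP1b86 larvae, against 72.7 and 94.0 FPKM in yw larvae. HP1b16 replicate 1 came close to the lower yw library. Cht3 had a log2 fold change of -0.98 (SE 0.44, adjusted p = 0.214, limma). Cht2 and Cht11 were singled out after their values were seen. Cht2 had 25.4 and 19.1 FPKM in HP1b16 larvae and 15.3 and 18.7 FPKM in HP1b86 larvae, against 31.5 and 31.5 FPKM in yw larvae. Cht11 had 6.64 and 5.24 FPKM in HP1b16 larvae and 5.62 and 5.88 FPKM in HP1b86 larvae, against 11.1 and 9.44 FPKM in yw larvae. The log2 fold changes were -0.68 for Cht2 (SE 0.16, adjusted p = 0.0739) and -0.72 for Cht11 (SE 0.14, adjusted p = 0.0556, limma). Cht11 was lower past the threshold after scaling to TPM, and Cht2 and Cht5 after quantile normalization.

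Among the Idgf genes, which promote growth of imaginal disc cells in culture, none passed the test in the mean of both mutants (0 of 5, limma), and 1 passed at an unadjusted p under 0.05. Idgf4 was that gene and the most abundant of the family on the FPKM scale. It had 377 and 407 FPKM in HP1b16 larvae and 559 and 323 FPKM in HP1b86 larvae, against 164 and 212 FPKM in yw larvae. All mutant libraries were above both yw libraries. Idgf4 had a log2 fold change of 1.13 (SE 0.27, adjusted p = 0.0749, limma). Idgf3 had 74.7 and 74.5 FPKM in HP1b16 larvae and 102 and 71.7 FPKM in HP1b86 larvae, against 73.3 and 79.8 FPKM in yw larvae. Idgf5 had 31.0 and 29.8 FPKM in HP1b16 larvae and 35.5 and 20.7 FPKM in HP1b86 larvae, against 21.0 and 27.7 FPKM in yw larvae. For Idgf3 and Idgf5 the mutant and yw libraries overlapped, with log2 fold changes of 0.06 (SE 0.17, adjusted p = 0.825) and 0.24 (SE 0.26, adjusted p = 0.618, limma), and both turned below 0 in units of TPM. Idgf1, Idgf2 and Idgf3 lie side by side on chromosome arm 2L, and their log2 fold changes were between -0.06 and 0.24. In HP1b86 all 5 Idgf genes were higher in replicate 1 than in replicate 2.

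The obstructors are secreted proteins that bind and order chitin in the cuticle and trachea. All 9 were tested, and 3 passed in the mean of both mutants: obst-E, obst-F and obst-H (4.68% of all rows were called higher). All 4 mutant libraries were above both yw libraries for 8 of the 9, an order that 24.4% of all rows had. obst-E, which shapes the chitin ridges of the cuticle when the larva contracts into a pupa, had 129 and 214 FPKM in HP1b16 larvae and 324 and 137 FPKM in HP1b86 larvae, against 6.69 and 16.9 FPKM in yw larvae. The replicates of each genotype differed widely, but the gap to yw was larger than these differences. Mean FPKM was 14.6-fold higher in HP1b16 and 19.6-fold higher in HP1b86. obst-E had a log2 fold change of 3.83 in HP1b16 (SE 0.63, adjusted p = 0.0735), 4.18 in HP1b86 (SE 0.63, adjusted p = 0.0481) and 4.01 in the mean of both (SE 0.54, adjusted p = 0.0367, limma).

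obst-F and obst-H had smaller but tighter differences. obst-F had 30.6 and 33.9 FPKM in HP1b16 larvae and 47.4 and 40.8 FPKM in HP1b86 larvae, against 10.9 and 13.2 FPKM in yw larvae. Its log2 fold change was 1.35 in HP1b16 (SE 0.15, adjusted p = 0.0668), 1.79 in HP1b86 (SE 0.15, adjusted p = 0.0410) and 1.57 in the mean of both (SE 0.13, adjusted p = 0.0312, limma). The libraries of HP1b86 were the highest, then HP1b16, then yw, with no overlap. obst-H had 9.77 and 9.49 FPKM in HP1b16 larvae and 12.6 and 11.0 FPKM in HP1b86 larvae, against 4.42 and 4.55 FPKM in yw larvae. Its log2 fold change was 1.09 in the mean of both mutants (SE 0.11, adjusted p = 0.0312, limma). Gasp, a chitin-binding protein of the tracheal lumen, had 149 and 128 FPKM in HP1b16 larvae and 129 and 82.4 FPKM in HP1b86 larvae, against 47.7 and 62.9 FPKM in yw larvae. Its mutant libraries were all above yw, and HP1b86 replicate 2 was the nearest. Gasp had a log2 fold change of 1.11 (SE 0.24, adjusted p = 0.0627, limma). The other obstructors, obst-A, obst-B, obst-G, obst-I and obst-J, had log2 fold changes between -0.33 and 1.02 and did not pass. obst-J was the sole obstructor below 0, and in TPM obst-G was below 0 as well.

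**Figure D3:**
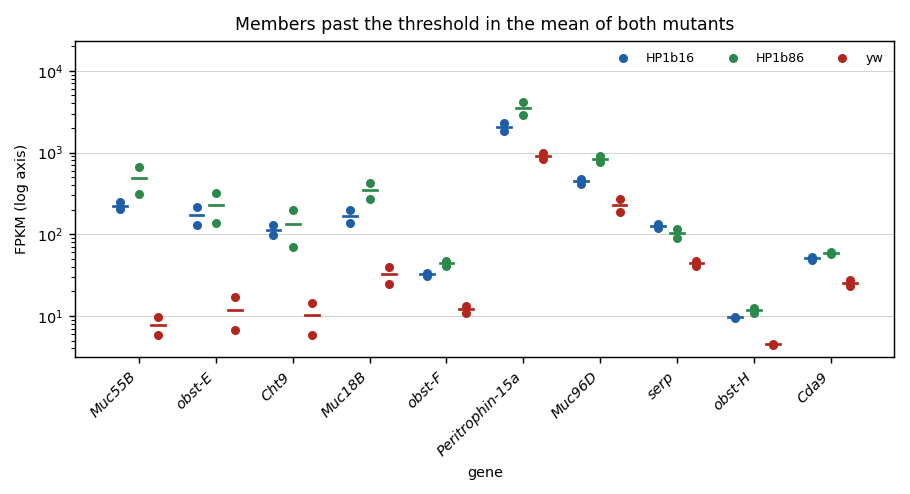
FPKM on a log axis of the 10 chitin genes that passed the test in the mean of both mutants, in each library of HP1b16 (blue), HP1b86 (green) and yw (red); points are libraries and bars are the means of 2 libraries. No mutant point overlaps a yw point for any of the 10 genes, and the gap is widest for Muc55B, obst-E and Cht9.

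The peritrophins held the most abundant transcripts of the set on the FPKM scale. All 4 mutant libraries were above both yw libraries for each of the 3 genes, compared with 24.4% of all rows. Peritrophin-15a, a component of the peritrophic matrix, had 1835 and 2318 FPKM in HP1b16 larvae and 2848 and 4142 FPKM in HP1b86 larvae, against 826 and 992 FPKM in yw larvae. HP1b86 was above HP1b16 in every library, and both were above yw. Peritrophin-15a had a log2 fold change of 1.19 in HP1b16 (SE 0.28, adjusted p = 0.114), 1.92 in HP1b86 (SE 0.28, adjusted p = 0.0481) and 1.55 in the mean of both (SE 0.25, adjusted p = 0.0437, limma). The call was lost in TPM (adjusted p = 0.0648), after quantile normalization (0.0652) and with no filter on low values (0.0643). Peritrophin-15b is its neighbour on chromosome arm 2L and a close relative, and reads that match both may have been divided between them. It had 449 and 516 FPKM in HP1b16 larvae and 639 and 798 FPKM in HP1b86 larvae, against 369 and 306 FPKM in yw larvae. The order of the genotypes was that of Peritrophin-15a, with smaller gaps. Peritrophin-15b had a log2 fold change of 0.80 (SE 0.17, adjusted p = 0.0627, limma). This value was 0.38 in TPM, 0.17 after quantile normalization and 0.89 after median-ratio scaling (adjusted p = 0.270, 0.716 and 0.0559, limma).

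Peritrophin-A, listed in RefSeq also as obst-D and lying next to obst-A on the X chromosome, had 73.3 and 81.7 FPKM in HP1b16 larvae and 63.0 and 34.9 FPKM in HP1b86 larvae, against 8.12 and 18.2 FPKM in yw larvae. Unlike the other peritrophins it was higher in HP1b16 than in HP1b86 in every library, a difference of 0.71 on the log2 scale that did not pass (adjusted p = 0.792, limma). Its log2 fold change in the mean of both mutants was 2.21 (SE 0.40, adjusted p = 0.0506, limma), at the edge of the threshold, and it passed with a pseudocount of 0.1 (adjusted p = 0.0484) and after scaling to TPM (0.0452).

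Of 13 mucin genes, 6 did not reach the filter and 7 were tested. Muc55B, Muc18B and Muc96D passed as higher in the mean of both mutants, where 4.68% of all rows did. Muc55B had the largest log2 fold change of all 40 chitin genes. It had 203 and 245 FPKM in HP1b16 larvae and 664 and 309 FPKM in HP1b86 larvae, against 5.78 and 9.72 FPKM in yw larvae. The mutant libraries were all far above yw. Mean FPKM was 29.0-fold higher in HP1b16 and 62.8-fold higher in HP1b86. Muc55B had a log2 fold change of 4.72 in HP1b16 (SE 0.45, adjusted p = 0.0668), 5.74 in HP1b86 (SE 0.45, adjusted p = 0.0407) and 5.23 in the mean of both (SE 0.39, adjusted p = 0.0268, limma).

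Muc18B had 138 and 198 FPKM in HP1b16 larvae and 423 and 273 FPKM in HP1b86 larvae, against 24.9 and 39.7 FPKM in yw larvae. The HP1b86 libraries were above those of HP1b16, which were above those of yw. Muc18B had a log2 fold change of 2.35 in HP1b16 (SE 0.36, adjusted p = 0.0722), 3.39 in HP1b86 (SE 0.36, adjusted p = 0.0410) and 2.87 in the mean of both (SE 0.31, adjusted p = 0.0332, limma). Muc96D had 412 and 479 FPKM in HP1b16 larvae and 763 and 905 FPKM in HP1b86 larvae, against 189 and 269 FPKM in yw larvae. The same order of genotypes held with no overlap. Muc96D had a log2 fold change of 0.97 in HP1b16 (SE 0.23, adjusted p = 0.114), 1.88 in HP1b86 (SE 0.23, adjusted p = 0.0425) and 1.43 in the mean of both (SE 0.20, adjusted p = 0.0386, limma), and the call in the mean was lost in TPM (adjusted p = 0.0601) and after quantile normalization (0.102). Of the other 4 tested, Muc11A and Muc68Ca were above both yw libraries in all 4 mutant libraries without passing, and Muc26B and Muc68E overlapped with yw.

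Gut genes and genes of the epidermis and trachea were then set side by side. The gut genes were Cht4, Cht8, Cht9, Cda9, Peritrophin-15a, Peritrophin-15b, Muc68D and Muc68Ca, 8 in all, of which 6 were tested. The 12 genes of the epidermis and trachea were mmy, kkv, serp, verm, Cht2, Cht5, Cht6, Cht7, obst-A, obst-B, Gasp and obst-E, and all were tested. The list also named Cht10, the RefSeq name of Cht3, but Cht3 was kept outside both sets. In the mean of both mutants, 3 gut genes (Cda9, Cht9 and Peritrophin-15a) and 2 epidermal or tracheal genes (serp and obst-E) were higher past the threshold. Of all rows tested, 4.68% were called higher. The median log2 fold change was 1.13 for the gut genes and 1.02 for the epidermal and tracheal genes, compared with -0.08 for all rows tested. All 6 gut genes were above 0, as were 42.7% of all rows, while 9 of the 12 epidermal and tracheal genes were above 0 and Cht2, Cht5 and Cht6 were below, with kkv turning below 0 in TPM and Cht6 above 0 after median-ratio scaling. All mutant libraries were above both yw libraries for 5 of 6 gut genes and for 8 of 12 epidermal and tracheal genes, and 24.4% of all rows had that order. Without yw replicate 1 the median of the epidermal and tracheal genes was 0.73.

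In larvae taken whole, a lower share of the cells that express a gene and less of its RNA in each cell cannot be told apart, and the same holds for a higher share. Marker genes of the tissues concerned were examined beside them. Of 13 genes of midgut digestive enzymes, 11 had a log2 fold change above 0 in the mean of both mutants, 8 had all mutant libraries above both yw libraries (24.4% of all rows), and betaTry, iotaTry and Mal-A1 were higher past the threshold (4.68% of all rows, limma). LManII, listed as LM408, had all mutant libraries below both yw libraries. Their summed FPKM was 19187 and 18639 in HP1b16 larvae and 70384 and 29623 in HP1b86 larvae, against 9476 and 10599 in yw larvae, and Jon99Ciii was listed at 0 in HP1b16 replicate 2 and HP1b86 replicate 2. Of 9 larval cuticle protein genes of the epidermis, all 9 were above 0, 8 had all mutant libraries above both yw libraries and Lcp3 passed, where the shares of all rows were 42.7%, 24.4% and 4.68%. Their sum was 57120 and 51739 FPKM in HP1b16 larvae and 65370 and 54238 FPKM in HP1b86 larvae, against 12170 and 23919 FPKM in yw larvae, and none was at 0. The 5 salivary glue genes, which are made late in the third instar, summed to 39349 and 27828 FPKM in HP1b16 larvae and 19098 and 44876 FPKM in HP1b86 larvae, against 73785 and 60659 FPKM in yw larvae, with all 5 below 0 in the mean of both mutants and adjusted p between 0.159 and 0.395 (limma). Of 5 muscle genes, Mhc, Mlc1, Mlc2 and wupA were higher past the threshold and all 5 had the mutant libraries above both yw libraries, with a median log2 fold change of 2.56. Their sum was 4857 and 5982 FPKM in HP1b16 larvae and 4774 and 2679 FPKM in HP1b86 larvae, against 806 and 1361 FPKM in yw larvae. Testis genes, 7 in number, summed to 94.4 and 95.7 FPKM in HP1b16 larvae and 59.8 and 378 FPKM in HP1b86 larvae, against 220 and 126 FPKM in yw larvae, so that HP1b86 replicate 2 was the highest library, and none passed in the mean of both mutants (lowest adjusted p = 0.492, limma). Of 6 fat body and stage genes, all but Fbp2 were listed at exactly 0 in some library, among them Lsp2 in both HP1b16 libraries. Lsp2 was the sole one to pass, as lower in the mean of both mutants. That call came from the HP1b16 libraries alone. In HP1b86 larvae Lsp2 had 16386 and 8705 FPKM, above the 7602 and 8239 FPKM of yw larvae. The part of these tissue and stage markers in the results for the chitin genes was not tested. No tracheal marker other than serp, verm, Gasp and obst-A was examined.

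**Figure D4:**
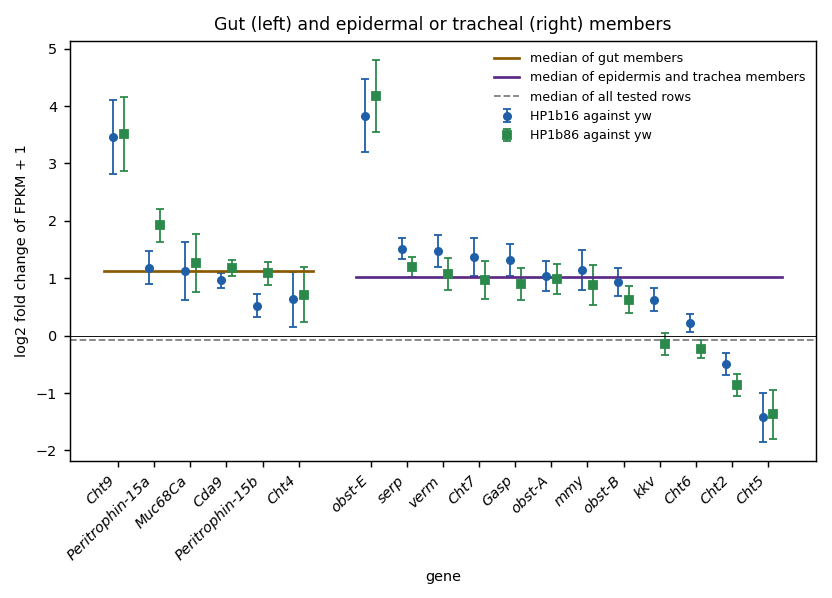
Fitted log2 fold change of FPKM + 1 for each gut gene (left) and each epidermal or tracheal gene (right), HP1b16 against yw (blue circles) and HP1b86 against yw (green squares), with standard errors. Each gene's standard error comes from all libraries together and is the same for both alleles. Coloured lines are the medians of the 2 sets in the mean of both mutants (1.13 and 1.02), and the dashed line is the median of all rows tested; the gut genes are all above 0, and Cht2 and Cht5 are below 0 in both alleles.

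Between the alleles, 0 of the 40 chitin genes passed in HP1b16 against HP1b86, in a fit that called 0.0% of all rows higher and 0.0091% lower (limma). At an unadjusted p under 0.05, kkv and Cht6 were higher in HP1b16, and Muc96D, Muc18B, obst-F and Peritrophin-15b were lower, compared with 3.81% and 4.09% of all rows. With HP1b86 replicate 1 left out, 1 chitin gene was higher and 3 were lower past the threshold, as were 1.84% and 16.5% of all rows. The difference of HP1b16 from HP1b86 was below 0 for all 6 tested gut genes, with a median of -0.18, and above 0 for 10 of the 12 epidermal and tracheal genes, with a median of 0.34, where 39.3% of all rows were above 0. These directions depended on single libraries: Cht4, Cht9 and Muc68Ca turned above 0 without HP1b86 replicate 1, and Cht4 and Cht9 without HP1b16 replicate 1, while mmy and obst-A turned below 0 without HP1b86 replicate 2. In TPM the differences of Cda9, Cht4, Cht9 and Muc68Ca turned above 0, together with the median of all rows tested, which was -0.08 in FPKM and 0.24 in TPM. The epidermal and tracheal genes were also uneven within HP1b86: their median distance from the yw mean was 1.07 on the log2 scale in replicate 1 and 0.50 in replicate 2.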

How the data were processed

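Total RNA of whole third-instar larvae was sequenced, 2 libraries per genotype (HP1b16, HP1b86, yw), grouped by the strain given in the labels. Values were used in FPKM, the unit in which the authors deposited them. The submitters' processing notes name bcl2fastq 2.18.0.12, Trim Galore 0.4.1, TopHat2 2.1.1, Cufflinks 2.2.1 and the dm3 build, and the gene annotation is not given in the sources used here. All 6 FPKM columns were used. Depth per library and its counting precision cannot be computed from FPKM.

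Values were taken as log2(FPKM + 1), so fold changes of low genes are understated. Of 16662 rows, the 10986 whose mean over all libraries reached 1 FPKM were fitted in R 4.3.3 with limma 3.58.1 (empirical Bayes with a variance trend, prior 1.59 and residual 3 degrees of freedom), with all libraries in 1 fit and no replicate block, and tested for 4 contrasts. P-values were adjusted by the Benjamini-Hochberg method over all rows, with a threshold of 0.05. Genes named with values in every library were those past the threshold, and the 2 most abundant and the 2 most changed of each role group; Cht2, Cht11 and CS-2 were added after their values were seen. The genes, role groups, tissue lists and marker lists were chosen with earlier results of these data known.

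Gene order and synonyms come from RefSeq (Release 6 assembly), in which all 48 chitin genes were matched, and no coordinates or sequences are given. Alternatives were another pseudocount, no filter, TPM, median-ratio and quantile scaling, a fit of only the genotypes compared, a replicate block, no variance trend and leaving out each library.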

Additional observations from a re-analysis of the deposited data

Results flagged for a closer look

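For 3 of the 40 tested chitin genes, both libraries of HP1b16 moved in the opposite direction to both libraries of HP1b86 relative to the mean of yw. The share of all rows with this order was not computed, so the count cannot be called high or low. For kkv HP1b86 replicate 2, and for Muc26B HP1b16 replicate 2, lay between the yw libraries. kkv was higher in HP1b16 than in HP1b86 by 0.77 on the log2 scale (SE 0.20, adjusted p = 0.579, limma), and Cht6 by 0.45 (SE 0.16, adjusted p = 0.615, limma). For Muc26B the difference of HP1b16 from HP1b86 was -0.52 (SE 0.24, adjusted p = 0.699, limma). Apart from this contrast, which none of them passed, the opposite directions themselves were not tested.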

How the results depend on the processing

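The count of chitin genes past the threshold in HP1b16 against yw, 0 as reported, was 6 in TPM, 7 after quantile normalization and 22 in the fit of only HP1b16 and yw, and from 0 to 22 when each library was left out. In HP1b86 against yw, 9 as reported, it was 5 with no filter on low values, 0 after median-ratio scaling and 0 in the fit of only HP1b86 and yw, and from 0 to 28 when each library was left out. For the mean of both mutants, 10 as reported, it was from 0 to 30, with 8 to 13 under the other settings apart from the replicate block. Between the alleles, 0 as reported, it was from 0 to 4. Counts with a lone library in a genotype assume that it varies like the others. The split was 11 higher and 2 lower in the mean after quantile normalization, and 7 higher and 3 lower in HP1b86 in TPM. The median of the gut genes, 1.13 as reported, was 0.75 in TPM and 0.99 to 1.28 with a library left out. The median of the epidermal and tracheal genes, 1.02 as reported, was 0.61 in TPM, 0.71 after quantile normalization and 0.73 to 1.15 with a library left out. The epidermal list also named Cht10, the RefSeq name of Cht3, but Cht3 was kept outside it. With Cht3 counted among them the median was 1.01, an alternative added after seeing the data. TPM moved the median of all rows tested in the mean of both mutants to -0.45, where it was -0.08 in FPKM, and the chitin genes then had a median of 0.53. The causes were not tested.

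The replicate numbers were not treated as pairs, since no source states that libraries of equal number shared a day or batch. With 2 libraries per genotype the values cannot decide this. The correlation of replicate differences over all rows was 0.07 between HP1b16 and yw, -0.40 between HP1b86 and yw and -0.12 between HP1b16 and HP1b86. With the replicate number as a block, the counts were 0 in HP1b86 against yw and 0 in the mean of both mutants (limma), with 21 and 26 genes at an unadjusted p under 0.05, and the other counts stayed at 0.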
